A study of Homo sapiens with 24 samples.

Results

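The comparison set HMLE cells that carried RBMS3 against HMLE cells that carried LacZ, both taken 90 min after actinomycin D at 10 µg/mL. It holds the 3 RBMS3 and 3 LacZ libraries of that time among the 24 libraries of the series, and 12096 of the 38849 genes in the deposited table had a mean of at least 10 over all libraries and were tested. HMLE is an immortalized human mammary epithelial line, LacZ, the bacterial beta-galactosidase gene, served as control, and actinomycin D blocks transcription. The series followed both lines at 0, 90, 180 and 360 min of the drug, a design that addresses transcript stability. All groups share the HMLE background and a medium with EGF, hydrocortisone, insulin and serum, and those after 0 min share the drug. The labels name neither the vector nor whether a line is 1 clone. They do not say if replicate libraries are separate cultures, and p-values here measure only the spread between libraries, which may be technical.

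RBMS3 belongs to a small family of proteins with RNA recognition motifs that bind single-stranded nucleic acid and are known to act on the stability of bound mRNAs. PRRX1, a homeobox factor of mesenchymal cells, is among the transcripts it is known to bind. In the epithelial-mesenchymal transition (EMT), factors such as ZEB1 and TWIST1 are known to shut down genes of cell junctions while genes of matrix and contractile fibres come on. A difference between lines at 90 min holds both what differed before the drug and what decayed at different rates since, so the 0 min difference is given beside it. The labels do not say whether the 0 min libraries came from the same cultures as the treated ones, so a difference between cultures cannot be told apart from either.

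Of the 12096 tested genes, 3606 (29.8%) differed between the lines at 90 min, with 1797 (14.9%) higher and 1809 (15%) lower in RBMS3 cells (limma, Benjamini-Hochberg adjusted p under 0.05). Each list count below is to be read beside these shares of 14.9% and 15%. The median difference over all tested genes was -0.016 on the log2(normalized count + 1) scale, which is used for every difference here and understates changes of low genes. Differences of at least 3 log2 units were called for 212 genes higher and 299 lower. Unless times are compared, a gene that rose or fell is one higher or lower in RBMS3 than in LacZ cells at 90 min. Listed at 0 in all 3 LacZ libraries, with an RBMS3 mean of at least 50, were 14 genes, and 23 genes showed the reverse. The libraries of a line correlated at r 0.948 to 0.955 across genes, against 0.824 to 0.838 between lines. The first principal component of the 6 libraries held 67.5% of the variance. Normalized counts summed to 6894363 to 7068279 per library at 90 min, and 14525 to 15459 genes were above 0. Over the series the sums ran from 6638187 to 8080428, so values are scaled counts and not shares of a library. They give levels relative to other RNAs, and a rise or fall over time is relative too. Less RNA per cell and fewer cells of a type cannot be told apart.

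RBMS3 itself was higher in the RBMS3 line. Its normalized counts were 48.7, 60.5 and 130 in LacZ cells and 174, 236 and 219 in RBMS3 cells, so the groups did not overlap, as was so for 46.6% of tested genes (23% higher and 23.6% lower). The difference was 1.5 ± 0.39 log2 units (SE, means of 3 and 3 libraries, limma adjusted p = 0.00591), a 2.63-fold ratio of means, and 1.45 at 0 min. The SE of each difference uses a spread taken from all 24 libraries, so it also reflects the other times. The libraries read the 3′ ends of mRNA, so an introduced RBMS3 transcript is counted only if it shares the endogenous 3′ end, which the sources used here do not state. PRRX1 was listed at 0 in all 3 LacZ libraries and at 437, 448 and 562 in RBMS3 cells, with a difference of 8.91 ± 0.50 (limma adjusted p = 1.52e-11). At 0 min the difference was 7.91. PRRX1 was listed at 0 in 11 of the 24 libraries of the series, all of the LacZ line. Its LacZ mean was 2.21 at 0 min and 0 at the later times, while RBMS3 means ran from 472 to 541.

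Among 15 tested members of the list of EMT transcription factors and the RBMS family, 9 were higher, 2 lower and 4 did not pass, with a median of 1.5 against -0.016 over all tested genes (8 and 3 when libraries were scaled to equal ribosomal protein sums). ZEB1, a zinc finger repressor of epithelial genes, stood at 11.9, 15.4 and 18.3 in LacZ cells and 362, 522 and 441 in RBMS3 cells (4.78 ± 0.38, limma adjusted p = 3.39e-09). TWIST1, a basic helix-loop-helix factor, had 28.2, 50.6 and 46.7 against 313, 367 and 327 (3.01 ± 0.22, adjusted p = 8.15e-10). Its paralog TWIST2 differed by 2.18 ± 0.28. None of these genes overlapped between the lines. At 0 min the differences were 4.52 (ZEB1), 3.76 (TWIST1) and 3.15 (TWIST2). The forkhead factor FOXC2 differed by 2.98 ± 0.32 and the E protein TCF4 by 1.65 ± 0.31. ZEB2 passed with 0, 3.36 and 71.4 in LacZ cells and 62.4, 71.5 and 57.8 in RBMS3 cells, so the lines overlapped through LacZ replicate 3 (3.25 ± 0.98, adjusted p = 0.0158). That call was lost without LacZ replicate 1 (1.86, adjusted p = 0.134), without LacZ replicate 2 (2.93, adjusted p = 0.0619) and when only the 6 libraries at 90 min were fitted (adjusted p = 0.11). TCF3, at 0.44 ± 0.16 (adjusted p = 0.0386), was lost without any one of LacZ replicates 1 and 2 and RBMS3 replicates 1 to 3, where adjusted p ran from 0.0571 to 0.158, and with the replicate block (adjusted p = 0.0505). The TCF3 call was also lost with no filter on low values (limma adjusted p = 0.0584) and with ribosomal protein scaling (limma adjusted p = 0.0856).

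Not every factor of the transition was higher. SOX9, a factor of mammary progenitors, had 565, 647 and 541 in LacZ cells and 85.2, 84.8 and 76.8 in RBMS3 cells, and fell by 2.81 ± 0.18 log2 units (limma adjusted p = 1.31e-10). SOX4 fell by 0.82 ± 0.14, with no overlap between the lines. At 0 min the differences were -2.82 for SOX9 and -0.17 for SOX4. SNAI2, the EMT factor also found in basal mammary cells, was at 162, 153 and 134 against 110, 109 and 97.2, and its difference of -0.50 ± 0.37 did not pass (adjusted p = 0.347). FOXC1 (-0.41 ± 0.23), RBMS1 (0.25 ± 0.23) and RBMS2 (-0.43 ± 0.17, adjusted p = 0.0559) did not pass either, the last of these passing without LacZ replicate 3 (-0.60, adjusted p = 0.0145) or RBMS3 replicate 2 (-0.56, adjusted p = 0.028) and with ribosomal protein scaling (-0.51, adjusted p = 0.0264).

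**Figure D1:**
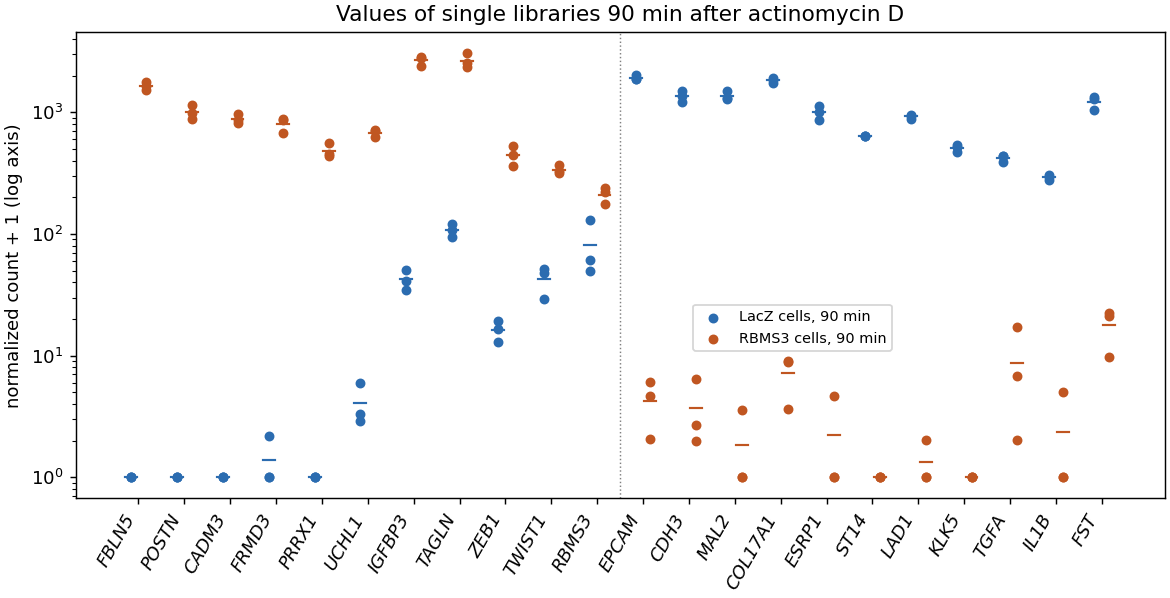
Normalized counts plus 1 (log axis) of 11 genes higher and 11 genes lower in RBMS3 cells, one point per library at 90 min, blue for LacZ and orange for RBMS3, with a bar at the mean. PRRX1 sits at 0 in all 3 LacZ libraries and between 437 and 562 in RBMS3 cells, while EPCAM lies between 1868 and 2019 in LacZ cells and between 1.05 and 5.07 in RBMS3 cells.

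Genes of the extracellular matrix were mostly higher in RBMS3 cells. Of 31 tested collagens and elastic fibre genes, 25 were higher and 1 lower in RBMS3 cells, with a median of 2.62 (3.35 at 0 min). FBLN5, an elastic fibre glycoprotein, had the largest rise: it was listed at 0 in all 3 LacZ libraries and at 1638, 1767 and 1512 in RBMS3 cells (10.68 ± 0.32, limma adjusted p = 7.95e-16). POSTN, a matrix protein of fibroblasts, was at 0 in the 3 LacZ libraries and at 881, 985 and 1142 (9.96 ± 0.24). The groups lay far apart in both genes. BGN, a small proteoglycan, stood at 0, 1.16 and 0 against 232, 253 and 274, and NID1, a basement membrane linker, at 0, 0 and 1.97 against 266, 243 and 266. The single matrix gene that fell was MFAP2, a microfibril protein, at 92.4, 67.0 and 89.2 in LacZ cells and 0, 4.23 and 2.17 in RBMS3 cells (-5.03 ± 0.67).

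Other genes among the 10 largest rises are known from other tissues. CADM3, an adhesion molecule of neurons, was at 0 in all 3 LacZ libraries and at 808, 864 and 962 in RBMS3 cells (9.78 ± 0.21). UCHL1, a neuronal ubiquitin hydrolase, had 1.91, 2.32 and 4.91 against 716, 620 and 699 (7.46 ± 0.43). FRMD3, a FERM domain protein, stood at 0, 1.17 and 0 against 877, 869 and 671, and GDF6, a BMP-type growth factor, at 0 in the 3 LacZ libraries against 263, 258 and 298. CADM3, UCHL1 and the neuronal reticulon RTN1 (7.25 ± 0.32) were the 3 of 6 tested endothelial and neural markers that were higher, and 0 were lower. The neural markers ELAVL3 and STMN2 and the endothelial marker CDH5 were listed at 0 in all 6 libraries, and VWF, GAP43 and PECAM1 at no more than 5.80. Neural TUBB3 was present in both lines (643 to 829), as was SYT1 (7.53 to 229), and neither passed. KDR, an endothelial receptor under the minimum mean and so not tested, had 1.69, 0 and 0 in LacZ cells and 8.99, 9.77 and 7.71 in RBMS3 cells. The summed level of the 18 listed endothelial and neural genes ran from 910 to 984 in LacZ cells and from 2495 to 2719 in RBMS3 cells. Of 14 leukocyte markers 2 were tested and 1 was lower, the sum ran from 49.1 to 64.2 in LacZ and from 18.6 to 31.2 in RBMS3 cells, and PTPRC, CD3E and LYZ were at 0 in all 6. The part of other cell types in these differences was not tested.

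Contractile and surface genes of mesenchymal cells were mostly higher, though CD44 and MMP14 were not. Of 21 tested members, 12 were higher and 2 lower, with a median of 0.97. TAGLN, an actin-binding protein of smooth muscle, stood at 93.4, 106 and 119 in LacZ cells and 2551, 2366 and 3041 in RBMS3 cells (4.63 ± 0.13, limma adjusted p = 2.37e-16). The light chain MYL9 had 29.6, 30.1 and 27.5 against 706, 650 and 657 (4.48 ± 0.25). No library of either line came near those of the other. The mesenchymal markers VIM (2.01 ± 0.08), CDH2 (2.26 ± 0.08) and FN1 (2.30 ± 0.13) were higher with no overlap, at 17919, 19139 and 18516 for VIM in RBMS3 cells against 4839, 4288 and 4637. CD44, a hyaluronan receptor often used as a mesenchymal marker, stood at 7734, 8023 and 6965 in LacZ cells and 1916, 2110 and 1907 in RBMS3 cells (-1.94 ± 0.08). MMP14, a membrane-bound collagenase, differed by -1.42 ± 0.16.

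Matrix proteases and plasminogen genes split, with 8 of 19 higher and 7 lower and a median of -0.05. Among all tested genes the shares were 14.9% higher and 15% lower. PLAU, the urokinase, stood at 2841, 1883 and 2721 in LacZ cells against 294, 288 and 233 in RBMS3 cells (-3.17 ± 0.91, limma adjusted p = 0.0109). At 0 min PLAU stood at 2756, 46.0 and 2700 in LacZ cells, and that spread enters the SE. MMP9, a gelatinase, stood at 235, 277 and 237 against 0, 0 and 2.17. MMP1, the interstitial collagenase, was higher in RBMS3 cells by 2.89 ± 0.33. In the insulin-like growth factor axis, 6 of 10 tested genes were higher and 0 lower, with a median of 1.61. IGFBP3, which binds these factors in serum, had 40.3, 49.8 and 33.6 in LacZ cells and 2798, 2844 and 2410 in RBMS3 cells (6.0 ± 0.28), and the ligand IGF2 had 5.73, 0 and 5.89 against 134, 131 and 165 (5.32 ± 0.68).

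Junction and polarity genes were nearly all lower: 34 of 38 tested members were lower in RBMS3 cells, 1 was higher and 3 did not pass. Their median was -3.74 (-3.42 at 0 min). MAL2, which sorts proteins to the apical membrane, stood at 1481, 1307 and 1288 in LacZ cells and at 0, 2.54 and 0 in RBMS3 cells (-9.80 ± 0.61, limma adjusted p = 7.6e-11). EPCAM, an adhesion molecule of epithelia, had 1868, 1872 and 2019 against 1.05, 5.07 and 3.61 (-8.96 ± 0.60). The gene for E-cadherin, CDH1, stood at 520, 471 and 503 against 0, 13.6 and 2.90 (-7.02 ± 0.80). The membrane protease ST14 (matriptase) was at 639, 634 and 633 in LacZ cells and listed at 0 in all 3 RBMS3 libraries. P-cadherin, CDH3, fell by 8.70 ± 0.70. Outside the list, the calcium-binding S100A14 fell by 8.21 ± 0.41. PKP1, a desmosomal plakophilin, was the exception at 798, 823 and 802 against 1063, 1154 and 1000 (0.41 ± 0.08, adjusted p = 0.000341). Thus 1 desmosomal plaque gene was slightly higher in the line in which most junction genes were lower.

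The E-box CAGGTG, read as CACCTG on the other strand, is the sequence that ZEB and SNAI repressors are known to bind. The windows below are reference sequence before the start of LAD1 and of 4 junction genes whose promoters hold it. They were chosen after the values were seen, and show the letters around the box in genes that differed by -9.51 (LAD1), -8.06 (RAB25), -8.00 (AP1M2) and -5.99 (OCLN) and in 1 that did not pass (TJP1, 0.43). Each is 30 bases, 5′ to 3′ on the gene's strand, from RefSeq on GRCh38.p14, with the E-box in capitals:
LAD1, chr1:201399342-201399371, minus strand, box 35 bases before the start: ggggaggggcgcCAGGTGaggcggcggccg
RAB25, chr1:156061107-156061136, plus strand, 41 bases before: catctctccaccCACCTGggccccaggtct
AP1M2, chr19:10587352-10587381, minus strand, 57 bases before: gacagcgctgctCACCTGgccgcctcccct
OCLN, chr5:69492502-69492531, plus strand, 33 bases before: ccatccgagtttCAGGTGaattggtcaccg
TJP1, chr15:29969120-29969149, minus strand, 88 bases before: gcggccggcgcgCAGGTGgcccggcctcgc
LAD1, RAB25 and AP1M2 hold further boxes in the window of 250 bases before to 50 after the start. A match is a description of the letters and not of binding. Of the 35116 promoters in the RefSeq table, from 250 bases before to 50 after each start, 20.6% hold the box on either strand. A comparison of shares between higher and lower genes is void, because promoters were matched for 79.4% of the genes called higher, 76.6% of those called lower and 57.9% of the tested junction genes, under the 80% needed.

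Regulators of the epithelial state fell with the junction genes. Of 11 tested epithelial transcription factors and splicing regulators, 9 were lower and 0 higher, with a median of -3.02 (-1.73 at 0 min). ESRP1, which directs epithelial splicing, stood at 1006, 860 and 1118 in LacZ cells and 3.66, 0 and 0 in RBMS3 cells (-9.21 ± 0.40, limma adjusted p = 3.56e-13). GRHL2, a grainyhead factor that maintains junction genes, was at 93.4, 132 and 71.5 against 0 in the 3 RBMS3 libraries (-6.60 ± 0.44). Among the hemidesmosome and basal genes, which anchor cells to laminin, 13 of 18 were lower and 2 higher, with a median of -1.83. LAD1, a filament protein at the basement membrane, had 874, 938 and 956 against 1.01, 0 and 0, and COL17A1, the hemidesmosomal collagen, had 1907, 1854 and 1724 against 7.97, 2.67 and 7.93 (-8.10 ± 0.56). The tetraspanin CD151 (1.25 ± 0.08) and the linker PLEC (0.27 ± 0.07) were the 2 that rose.

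Keratins, the filaments of epithelial cells, were not uniformly lower. Of 12 tested, 9 were lower in RBMS3 cells, 2 higher and 1 did not pass, with a median of -2.34 (-0.33 at 0 min). Yet the summed keratin level was 29025 to 30226 in LacZ cells and 26719 to 28307 in RBMS3 cells. KRT6A, a keratin of activated keratinocytes, had 4302, 4496 and 4466 against 162, 164 and 159 (-4.76 ± 0.12, limma adjusted p = 2.61e-17). The simple keratin KRT7 was at 7701, 8956 and 8598 in LacZ cells and 15787, 15242 and 16474 in RBMS3 cells (0.91 ± 0.08). The hair-type keratin KRT81 was at 1650, 2067 and 1638 against 7865, 7563 and 7833 (2.13 ± 0.09). These 2 genes held most of the keratin reads of the RBMS3 line. The luminal partners KRT8 (-0.80 ± 0.16) and KRT18 (-2.46 ± 0.13) were lower. Of 7 luminal mammary markers, 5 were lower and 1, the luminal factor GATA3, was higher (0.90 ± 0.26).

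Kallikreins, proteases of the epithelial surface, and protease inhibitors formed a list with 9 of 12 tested lower and 0 higher and a median of -4.81. Beside these counts stand 15% lower and 14.9% higher over all tested genes. All 5 tested kallikreins fell, and so did 4 of 7 inhibitors, SLPI, SERPINB1, SERPINB2 and CSTA. KLK5 was at 537, 521 and 470 in LacZ cells and listed at 0 in all 3 RBMS3 libraries (-8.99 ± 0.24, limma adjusted p = 1.21e-16), and KLK8 at 164, 237 and 113 against 0 in all 3. PTP4A1, a phosphatase, was the remaining gene of the 10 largest falls at 724, 306 and 690 against 0 in all 3, but its spread over the 24 libraries was wide (-9.06 ± 2.42). It was listed at 0 in 8 of the 24 libraries, and its difference was 0.49 at 180 min.

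**Figure D2:**
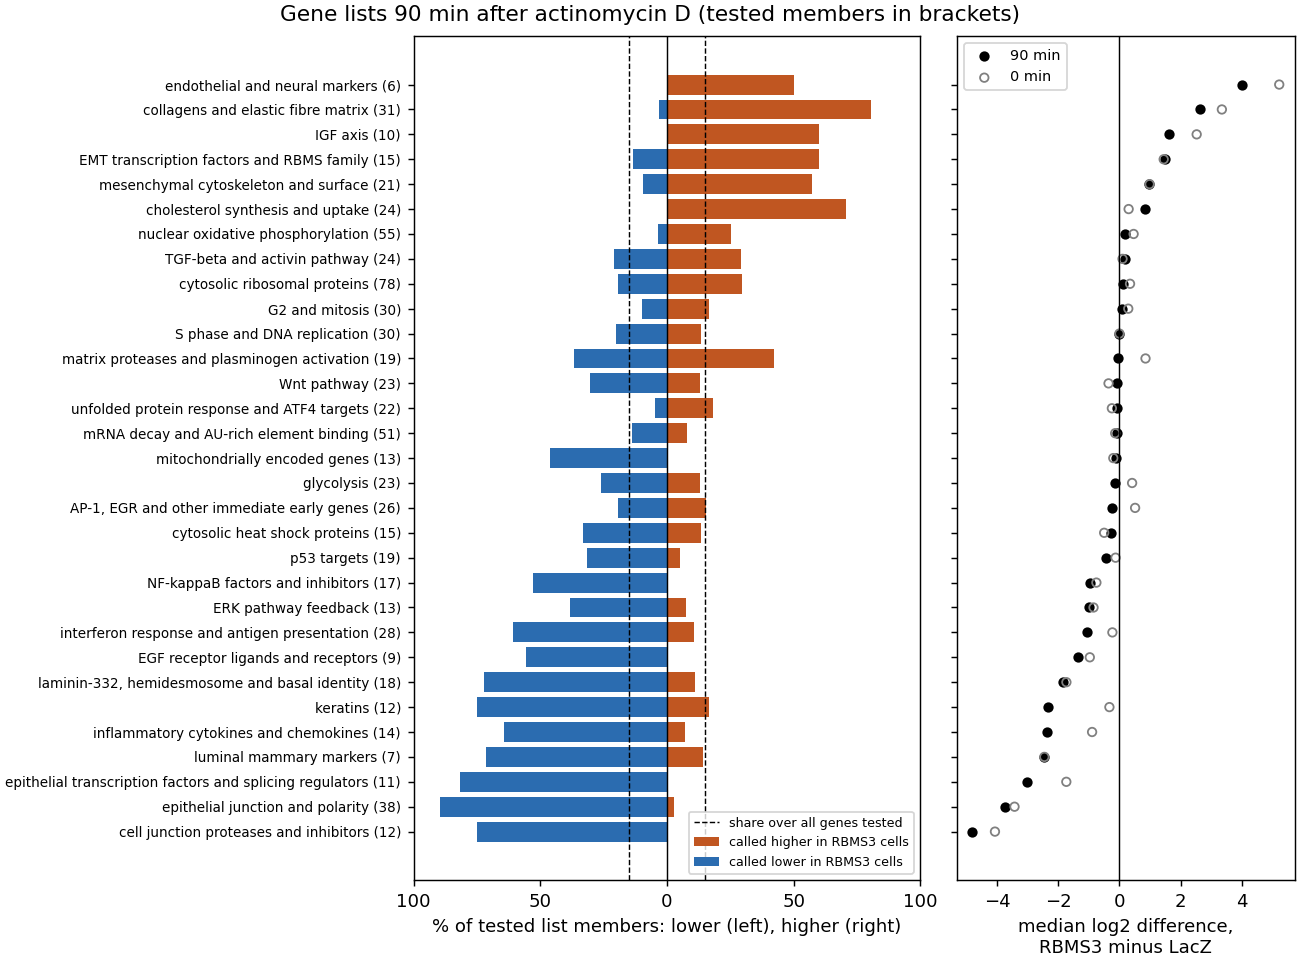
Left: percent of the tested members of each list called higher (orange, right) or lower (blue, left) in RBMS3 cells at 90 min, with dashed lines at 14.9% and 15%, the shares over all tested genes. Right: median log2 difference of each list at 90 min (filled) and 0 min (open). Junction genes (34 of 38 lower) and collagens (25 of 31 higher) lie well beyond the dashed lines.

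Cytokine genes were mostly lower in RBMS3 cells. Of 14 tested cytokines and chemokines, 9 were lower and 1 higher, with a median of -2.37 (-0.89 at 0 min). Among all tested genes 15% were lower and 14.9% higher. IL1B stood at 302, 295 and 276 in LacZ cells and 4.05, 0 and 0 in RBMS3 cells (-7.41 ± 0.56, limma adjusted p = 1.57e-09), and IL1A, the other interleukin-1, at 289, 391 and 331.85 against 6.08, 0 and 3.62 (-6.71 ± 0.53). CXCL5, a neutrophil chemokine, was the 1 that rose, at 26.7, 17.4 and 16.7 against 258, 352 and 317 (3.88 ± 0.28). In the NF-kappaB list 9 of 17 were lower and 0 higher (12 lower with ribosomal protein scaling). ICAM1, an adhesion molecule that this pathway induces, was at 101, 99.8 and 72.0 against 2.01, 1.68 and 2.87. Counting genes with a mean of at least 50 only, 3 of the cytokines were lower.

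Of 9 tested EGF receptor ligands and receptors, 5 were lower and 0 higher: the ligands TGFA, HBEGF, AREG and EREG and the receptor EGFR (-0.58 ± 0.09). The ligands EPGN (-0.93) and NRG1 (-1.0) did not pass. TGFA stood at 436, 435 and 392 in LacZ cells and 1.01, 16.1 and 5.79 in RBMS3 cells (-6.10 ± 0.68), and HBEGF at 639, 625 and 600 against 86.1, 92.3 and 77.5 (-2.85 ± 0.16). Feedback genes of the ERK pathway, which these ligands activate, were lower for 5 of 13 and higher for 1. Over all tested genes 15% were lower and 14.9% higher. DUSP6, a phosphatase of ERK, was at 146, 124 and 106 against 7.81, 11.4 and 11.9 (-3.48 ± 0.39), while its fellow inhibitor SPRED1 rose by 1.25 ± 0.24. Immediate early genes, whose mRNAs are short-lived, were 4 higher and 5 lower of 26, near the shares of all tested genes. Their median was -0.24 at 90 min and 0.51 at 0 min. At 90 min IER3 was at 1796, 2021 and 1436 in LacZ cells and 138, 126 and 130 in RBMS3 cells (-3.71 ± 0.25). CCN2, a matricellular target of YAP, was at 136, 98.4 and 126 against 699, 753 and 569 (2.48 ± 0.28). With only the 6 libraries at 90 min in the fit, 9 immediate early genes were lower.

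Within the TGF-beta and activin list 7 of 24 were higher and 5 lower (5 and 6 with ribosomal protein scaling). The shares over all tested genes were 14.9% higher and 15% lower. LTBP1, which holds latent TGF-beta in the matrix, had 0.328, 3.33 and 0.338 in LacZ cells and 211, 327 and 233 in RBMS3 cells (7.0 ± 0.79). FST, the activin antagonist, was at 1042, 1342 and 1279 in LacZ cells and 8.80, 21.5 and 20.3 in RBMS3 cells (-6.18 ± 0.48). The activin subunit INHBA was at 1649, 1802 and 1636 against 454, 438 and 743 (-1.68 ± 0.15). Ligand subunit and antagonist were thus both lower in RBMS3 cells. Without LacZ replicate 3 the number higher was 4. In the Wnt list 3 of 23 were higher and 7 lower, beside the same shares of 14.9% and 15%. The antagonist SFRP1 stood at 368, 333 and 266 against 13.9, 7.47 and 1.65. The ligands WNT9A (-3.78 ± 0.82), WNT10A (-5.08 ± 0.47), WNT7A (-4.42 ± 0.68) and WNT7B (-2.87 ± 0.53) were lower too, while the ligand WNT5B (1.06 ± 0.24) and its receptor ROR1 (0.98 ± 0.18) were higher.

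Interferon and antigen presentation genes were lower for 17 of 28 and higher for 3, with a median of -1.05 (-0.23 at 0 min). Among all tested genes 15% were lower and 14.9% higher. IFIT3, induced by interferon, had 74.3, 120 and 114 in LacZ cells and 27.3, 8.71 and 21.0 in RBMS3 cells (-2.48 ± 0.39). The membrane restriction factors IFITM2 (2.69 ± 0.16) and IFITM3 (0.71 ± 0.07) were higher, at 165, 176 and 163 against 1238, 1048 and 1000 for IFITM2. Cholesterol synthesis and uptake showed the opposite pattern: 17 of 24 were higher and 0 lower, with a median of 0.83 (0.30 at 0 min). STARD4, a sterol carrier, was at 35.1, 24.9 and 36.5 in LacZ cells and 73.9, 101 and 136 in RBMS3 cells (1.64 ± 0.50, limma adjusted p = 0.0159), a call lost without LacZ replicate 2 (adjusted p = 0.0635) or RBMS3 replicate 3 (adjusted p = 0.0696). Equalizing the ribosomal protein sums changed the count to 15 higher and 1 lower.

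Housekeeping and stress lists had medians between -0.43 (p53 targets) and 0.20 (oxidative phosphorylation). Of 78 cytosolic ribosomal protein genes, 23 were higher and 15 lower with a median of 0.11, and 17 were higher and 21 lower once libraries were scaled to equal ribosomal protein sums. Oxidative phosphorylation gave 14 higher and 2 lower of 55 (median 0.20), and glycolysis 3 and 6 of 23 (1 and 8 with that scaling). Mitochondrially encoded genes gave 0 higher and 6 lower of 13. For G2 and mitosis the counts were 5 and 3 of 30 (2 and 5 with that scaling), for S phase 4 and 6 of 30, for the unfolded protein response 4 and 1 of 22 (1 and 3 with that scaling), and for p53 targets 1 and 6 of 19. Heat shock proteins gave 2 and 5 of 15, and factors of mRNA decay 4 and 7 of 51 against the 14.9% and 15% of all genes. TYMS, which makes thymidylate, was among the clearest at 559, 448 and 619 against 1753, 1766 and 1534 (1.64 ± 0.12). IGF2BP1, a binder that shields mRNAs from decay, fell by 2.42 ± 0.47.

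Most of the 90 min difference was present at the other times. Among the 3606, the 0 min comparison called 2510 (69.6%) the same way and 53 the opposite way. At 180 min 2830 (78.5%) and at 360 min 2851 (79.1%) were called the same way, with 2 and 0 opposite. The differences at 90 min and at 0, 180 and 360 min correlated across genes at r 0.814, 0.871 and 0.863. Genes are not independent replicates, and no library is shared between times. All 4 comparisons share 1 spread estimate per gene from the 24 libraries, so their calls are not independent. In 1 direction at all 4 times stood 2060 genes, 1062 higher and 998 lower, while 314 were called at 90 min alone. Of all tested genes, the 0 min comparison called 37.5% (18.6% higher, 18.9% lower), that of 180 min 33.1% (16.2% and 16.8%) and that of 360 min 35.2% (17.5% and 17.7%).

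The difference at 90 min departed from that at 0 min for 633 genes (5.23%), with 328 (2.71%) shifted toward RBMS3 cells and 305 (2.52%) toward LacZ cells. For 454 of them the lines were closer together at 90 min, and for 179 farther apart. The 2 estimates had opposite signs for 305 genes, of which 53 were called in opposite directions at the 2 times. Fitting only the 12 libraries of the 2 times gave 295 genes (141 and 154). Scaling to ribosomal protein sums gave 1126, of which 950 shifted toward RBMS3 cells and 176 toward LacZ cells, with the median over all genes at 0.206 in place of -0.015. The split of these calls thus moves with the scaling, and directions below are relative to the deposited scale.

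KRT14, a basal keratin, was higher in RBMS3 cells at 0 min, with 6168, 6108 and 5902 against 2133, 3053 and 2478 in LacZ cells. At 90 min it was lower, with 723, 766 and 884 against 2356, 2601 and 2594. The difference went from 1.26 to -1.67 (-2.93 ± 0.14 between the times, limma adjusted p = 2.45e-11) and was -1.66 at 180 and -1.49 at 360 min. Its partner KRT5 had overlapping lines at 0 min (2437, 2688 and 2830 against 3212, 1503 and 3392) and separate ones at 90 min (787, 664 and 692 against 4422, 3538 and 3887). In RBMS3 cells the KRT14 mean was 6059 at 0 min, 791 at 90 min, 944 at 180 min and 1184 at 360 min, so the largest step lay between the 0 min libraries and the later ones. KRT81 moved the other way, from 0.93 to 2.13 (1.2 ± 0.13 between the times). The 12 tested keratins gave 3 shifts toward RBMS3 and 4 toward LacZ cells, beside 2.71% and 2.52% of all tested genes.

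**Figure D3:**
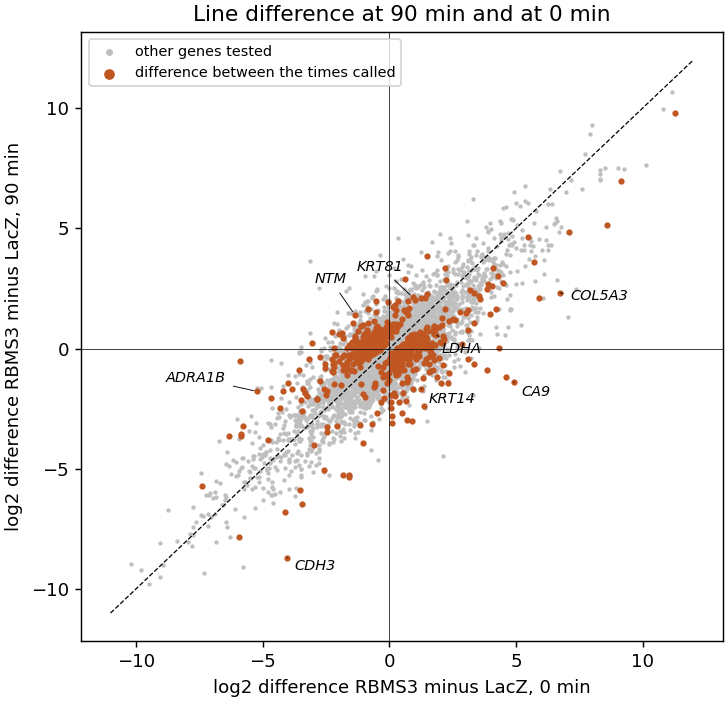
Log2 difference between the lines at 0 min (x) and 90 min (y) for the 12096 tested genes, with the 633 genes whose 2 differences were called unlike in orange and equality dashed. KRT14 lies right of and below 0, at 1.26 and -1.67, and CDH3 far below the dashed line, at -4.03 and -8.70.

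By size, the 5 largest shifts toward LacZ cells among called genes were CA9, C1R, PIK3C3, CDH3 and COL5A3. CA9, a carbonic anhydrase induced by hypoxia, had a mean of 218 ± 70.4 (SD, n = 3) in RBMS3 cells at 0 min and values of 4.18, 6.12 and 9.71 at 90 min, against 20.7, 8.78 and 32.9 in LacZ cells. CDH3 went from 83.0, 86.1 and 88.8 in RBMS3 cells at 0 min to 5.45, 1.71 and 0.973 at 90 min, while LacZ cells kept 1214, 1492 and 1361. In both genes the 0 and 90 min libraries of the RBMS3 line differed, and whether they share a culture is not stated. PIK3C3, a lipid kinase of autophagy, rests on scattered libraries: 1433, 2348 and 340 in RBMS3 cells at 0 min, and 127, 177 and 1088 in LacZ cells at 90 min. COL5A3, a collagen, had 34.1, 3.70 and 8.06 in RBMS3 cells at 90 min, and its call at 90 min (2.31 ± 0.74, limma adjusted p = 0.0212) was lost without RBMS3 replicate 1 (1.5, adjusted p = 0.16) or LacZ replicate 1 (1.71, adjusted p = 0.121) and with only the 6 libraries at 90 min (adjusted p = 0.101).

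The 5 largest shifts toward RBMS3 cells were SNORA67, ADRA1B, HS3ST2, NTM and COL13A1. HS3ST2, a heparan sulfate sulfotransferase, had 100, 152 and 102 in LacZ and 114, 148 and 148 in RBMS3 cells at 90 min, a difference of 0.23 against -3.06 at 0 min. NTM, a neural adhesion molecule, had 352, 293 and 319 in RBMS3 cells against 93.7, 151 and 123, and went from -1.36 at 0 min to 1.41 (2.77 ± 0.31 between the times, limma adjusted p = 1.33e-05). At 90 min the lines stood apart for NTM and overlapped for HS3ST2. Over all tested genes 2.71% shifted toward RBMS3 and 2.52% toward LacZ cells (950 and 176 of 12147 with ribosomal protein scaling). Among the lists, glycolysis had 0 shifts toward RBMS3 and 10 of 23 toward LacZ cells (0 and 5 with that scaling). Interferon genes had 0 and 8 of 28 (0 and 7), and collagens 0 and 6 of 31 (0 and 3). Cholesterol genes had 5 and 0 of 24 (10 and 0), and ribosomal protein genes 0 and 21 of 78 (5 and 9). LDHA, the lactate dehydrogenase subunit, stood at 16280, 16459 and 16318 in RBMS3 cells at 0 min and at 10464, 10288 and 10636 at 90 min, while LacZ cells went from 4946, 4677 and 4866 to 6777, 6830 and 6855.

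**Figure D4:**
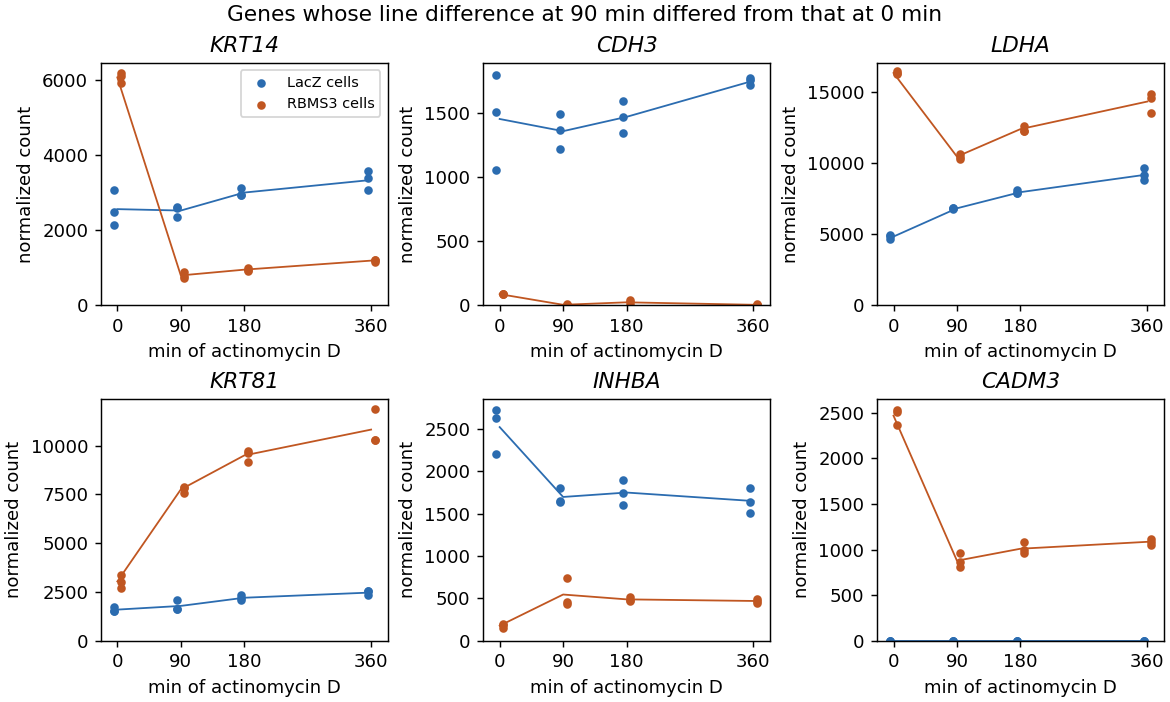
Normalized counts of 6 genes over minutes of actinomycin D, one point per library and a line through the means, blue for LacZ and orange for RBMS3 cells. In KRT14 the orange points fall from 5902 to 6168 at 0 min to 723 to 884 at 90 min and stay under the blue ones at 180 and 360 min.

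Against 360 min, 1 gene was called (0.00827%): RNA5S1, a 5S ribosomal RNA, with 122, 170 and 76.6 in LacZ and 186, 129 and 182 in RBMS3 cells at 90 min. Its line difference was 0.48 at 90 min and -2.08 at 360 min (2.56 ± 0.40 between the times, limma adjusted p = 0.0382). It is a short RNA with near-identical copies, so its reads are uncertain in libraries made from polyadenylated RNA. At an unadjusted p under 0.05 there were 790 genes (6.53%). The call was lost with the replicate block (adjusted p = 0.0769), with the 12 libraries of the 2 times alone (adjusted p = 0.0603) and on leaving out any of 9 of the 12 libraries (adjusted p 0.0705 to 0.186).

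The calls were unevenly spread over the chromosomes. RefSeq gave a chromosome for 98.0% of the tested genes. On chromosome 15, with 398 tested genes, 156 (39.2%) were higher and 13 (3.27%) lower, with a median of 0.56 at 90 min, 0.62 at 0 min and 0.67 at 360 min. On chromosome 11, 214 of 683 (31.3%) were higher and 55 (8.05%) lower, with a median of 0.32. Chromosome 6 leaned the other way, with 31 of 607 (5.11%) higher and 149 (24.5%) lower and a median of -0.29, as did chromosome 1, with 92 of 1213 (7.58%) higher and 278 (22.9%) lower. Chromosome 8 split along its length: with its tested genes cut by position into 4 parts of 103 or 104, the medians were 0.50, -0.44, -0.57 and -0.10. RPLP2 (0.94) and RPS13 (0.93), the ribosomal protein genes that rose most, lie on chromosome 11, and RPL7 (-0.81) and RPS20 (-0.74), those that fell most, on chromosome 8. The median had the same sign at 90 and 0 min on 22 of 23 chromosomes. These are counts with no test, neighbouring genes are not independent, and the part of gene position in the other results was not tested.

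**Figure D5:**
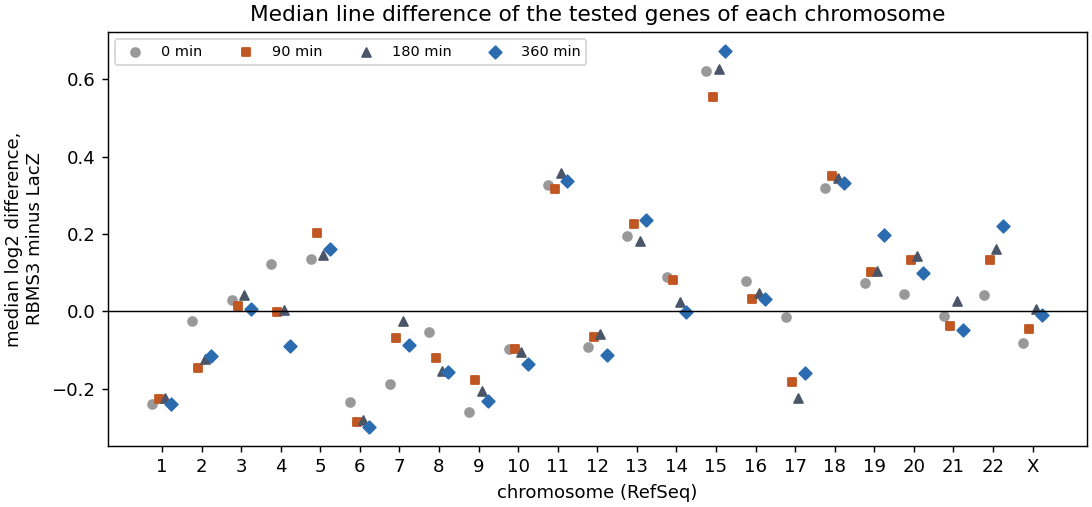
Median log2 difference between the lines over the tested genes of each chromosome, at 0, 90, 180 and 360 min. Chromosome 15 lies highest at all 4 times (0.56 at 90 min) and chromosomes 6 and 1 among the lowest (-0.29 and -0.23).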

How the data were processed

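The 24 libraries were made with QuantSeq, which reads 3′ ends of mRNA, per the labels' protocols. The submitters' processing notes name DESeq2 1.32.0, Salmon 1.4.0 and Trim Galore 0.6.6. The genome build was not given in the sources used here. Per gene and library, the deposited values are a normalized count signal from the authors, the source of all values here, beside an estimated count per transcript. The names of 12 of the 24 transcript files, those of all 3 LacZ libraries at 90 min included, disagreed with their sample records, so they served only for depth (4426445 to 9856338 estimated reads), and no count test was run. Differences were tested with limma 3.58.1 (R 4.3.3, trend on) on log2(normalized count + 1) in a single model of 8 groups with 16 residual degrees of freedom, over genes with a mean of at least 10, with Benjamini-Hochberg adjustment and a threshold of 0.05. The fit was tested on simulated data. edgeR 4.0.16 and DESeq2 1.42.0 were used only for scaling in alternatives.

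Named are RBMS3, PRRX1, tested EMT factors, the 10 largest rises and falls among called genes with a higher-line mean of 50 or more and no overlap (46.6% of tested genes had none), up to 2 of each per list, the 5 largest called shifts each way, and fixed cell type markers. For the rises, 9 of 10 are described. Some genes that the rule names are not reported here. The comparison and its 32 lists were chosen with earlier results of these data known. Promoter windows and chromosomes come from RefSeq.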

Additional observations from a re-analysis of the deposited data

Results flagged for a closer look

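For 31 genes, 26 named by rule or list and 5 cell type markers, the difference between the lines at 90 min departed from that at 0 min in a test of the change itself (limma, adjusted p from 2.45e-11 to 0.0364), and for 1 from that at 360 min. Values are the change in log2 difference, RBMS3 minus LacZ, and the share of all tested genes called against 0 min was 5.23%. Shifts toward LacZ cells were -6.30 for CA9, -5.82 for C1R (a complement protease), -4.74 for PIK3C3, -4.67 for CDH3, -4.43 for COL5A3, -2.93 for KRT14, -2.52 for KRT5, -2.01 for ENO2 (an enolase), -1.49 for CADM3, -1.21 for IFITM2, -1.14 for LDHA and -1.05 for PFKFB3, which promotes glycolysis. Smaller shifts in that direction were -1.04 for FN1, -1.03 for IFITM3, -0.86 for TAGLN, -0.75 for NUSAP1 (a spindle protein), -0.67 for TUBB3, -0.67 for the mitochondrially encoded MT-ND1 and -0.30 for RPS20.

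Shifts toward RBMS3 cells were 5.37 for SNORA67 (a small nucleolar RNA), 3.42 for ADRA1B (an adrenergic receptor), 3.28 for HS3ST2, 2.77 for NTM, 2.74 for COL13A1, 2.15 for INHBA, 1.38 for ASNS (asparagine synthetase), 1.2 for KRT81, 0.78 for CDH2, 0.63 for KRT7, 0.63 for PKP1 and 0.58 for CD44. INHBA was lower in RBMS3 cells at both times, with -3.83 at 0 min and -1.68 at 90 min. ASNS was -0.54 at 0 min and 0.84 at 90 min. Against 360 min, RNA5S1 shifted by 2.56. Of the genes called against 0 min, PIK3C3, COL5A3, SNORA67, COL13A1, CD44, NUSAP1, PFKFB3, RPS20, TAGLN and TUBB3 did not pass when only the 12 libraries of the 2 times were fitted (adjusted p from 0.0526 to 0.128). With ribosomal protein scaling NUSAP1, PFKFB3, RPS20 and TUBB3 did not pass (adjusted p from 0.0537 to 0.619). With no filter on low values COL13A1, ENO2, PFKFB3 and RPS20 did not pass (limma adjusted p from 0.0545 to 0.0571). With a pseudocount of 5 COL13A1 did not pass either (limma adjusted p = 0.057). Of 12 fits that each left out 1 library, PFKFB3 did not pass in 8, COL13A1 and ENO2 in 7, PIK3C3 in 5 and RPS20 in 1. The labels do not say whether the 0 min and later libraries share a culture, so a difference between cultures and an effect of the drug cannot be told apart in these shifts.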

How the results depend on the processing

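The 90 min comparison called 3552 genes with a pseudocount of 0.5 and 3682 with 5, 3552 with no filter, 3019 with a minimum mean of 50, 3608 with TMM, 3598 with median-of-ratios, 3675 with ribosomal protein scaling (1532 higher, 2143 lower), 3604 with robust fitting and 3762 with its 6 libraries alone. Leaving out 1 library gave 2984 to 3137. The replicate block gave 3588. Deviations of same-numbered libraries of the 2 lines at 90 min correlated at r 0.012, -0.0186 and -0.0158, so no shared deviation was seen. This cannot tell whether same-numbered libraries were handled together, because low genes add noise to r. The block ended the calls of TCF3 and RNA5S1 and of no other named gene. Against 0 min, 633 calls became 1126 (950 and 176) with ribosomal protein scaling and 295 (141 and 154) with 12 libraries, and leave-one-out, with the 0 min libraries added after seeing the data, gave 443 to 739. Against 360 min, 1 call became 2 with no filter, 5 with ribosomal protein scaling, and 0 with the block or 12 libraries, and leave-one-out gave 0 to 4 (0 to 4 higher, 0 to 1 lower). The cause was not tested. PIK3C3 at 90 min (-0.87) ranged from -1.47 to 0.078 on leaving out 1 library, the latter without LacZ replicate 3, and passed in none of these fits. TUBB3 (-0.016) ranged from -0.11 to 0.072, did not pass either, and was above 0 without LacZ replicate 1 (0.015), LacZ replicate 2 (0.021) or RBMS3 replicate 3. Without 1 library, the call of HSPA1A ended in all 6 fits, and it also ended with no filter (limma adjusted p = 0.0604). Of 6 such fits, calls ended in 5 for XBP1, in 4 for CCNE2, DNAJB4 and HK1 and in 3 for ENO2. They ended in 2 for BUB1, ID2 and STARD4 and in 1 for CNOT7. Ribosomal protein scaling also ended the calls of DNAJB4, HK1 and XBP1 (limma adjusted p = 0.0513, 0.0763 and 0.0513). The fit of the 6 libraries alone ended that of DNAJB4 (limma adjusted p = 0.0569). All of these kept the same sign. No list median at 90 min changed sign with TMM, median-of-ratios or ribosomal protein scaling. Low genes rest on few reads, which limits their precision.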
